A study of Mus musculus with 24 samples.

Results

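Transcripts of 8 genes of the leukaemia inhibitory factor (LIF) and STAT3 pathway were followed in mouse embryonic stem cells (mESCs), wild-type or of lines targeted to lack 1 regulatory subunit of an ISWI chromatin remodeler. The genes were taken as a list by symbol, joined to the Entrez IDs of the counts table, and all 8 passed the filter on low counts, out of 24594 genes in the table and 15682 tested. They are the receptor subunits Lifr and Il6st, the kinase Jak1, the transcription factor Stat3, the feedback inhibitor Socs3 and the target genes Junb, Pim1 and Gbx2.

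The RNA-seq data comprise 24 untreated libraries of 129S6/SvEvTac mESCs, grown in medium with serum and LIF, in 5 batches named A to E that each hold their own wild-type (WT) libraries. Batch A holds 2 WT, 2 Rsf1Δ and 2 WstfΔ libraries, batch B holds 2 WT and 2 Tip5Δ, batch C holds 2 WT and 2 BptfΔ, batch D holds 3 WT and 3 labelled Cecr2Δ, and batch E holds 2 WT and 2 Acf1Δ. Wstf, Tip5 and Acf1 are the proteins of Baz1b, Baz2a and Baz1a. Each deletion was made with CRISPR-Cas9 in a line represented by 1 clone, so that deletion and clone cannot be told apart, and p-values measure only the spread between libraries. LIF protein was supplied to every line, WT included.

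LIF binds the LIF receptor, which pairs with gp130, the product of Il6st. The paired receptor activates JAK kinases, above all JAK1, and these phosphorylate STAT3, which enters the nucleus and binds palindromic DNA sites. In mESCs kept in serum this route sustains self-renewal. Socs3 is a direct STAT3 target whose product blocks the receptor and kinase, and Pim1 (a serine/threonine kinase), Junb (an AP-1 subunit and immediate early gene) and Gbx2 (a homeobox factor) are transcribed in response to the pathway.

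Total counts per library lay between 13417755 and 36721585, and the fewest counts of any of the 8 genes in any library were 265, for Junb. A count of 3, taken as the limit of detection, corresponds to between 0.0837 and 0.22 CPM (read counts scaled to library size, in the unit used throughout). The targeted transcript was lower by a log2 fold change between -2.40 and -1.72 in Rsf1Δ, WstfΔ, BptfΔ and Acf1Δ. Baz2a differed by -0.26 in Tip5Δ (adjusted p = 0.0533), and Cecr2 was higher by 0.37 in the 3 libraries labelled Cecr2Δ (adjusted p = 0.000154), so these are named by their label throughout. A transcript need not fall when its reading frame is broken, and the study's methods chose clones by western blot and sequencing of the alleles, which were not analysed here. For every deletion line the paper reports that western blots detected none of the deleted protein. Transcripts of other targeted subunits also changed at an adjusted p under 0.01 in edgeR. In BptfΔ, Baz1a was at -1.74, near its -1.72 in Acf1Δ, and Cecr2 was at -1.56. Baz1a was also lower in Rsf1Δ (-0.64), WstfΔ (-0.83) and the Cecr2Δ label (-0.47). Rsf1 (-0.54), Baz2a (-0.42) and Bptf (-0.39) were lower in Acf1Δ, and Baz2a was higher in WstfΔ (0.56). Whether this has a part in the changes of the 8 genes was not tested. The 4 libraries of batch C held between 3290 and 4824 CPM of Rpph1, an RNA without a poly(A) tail, and the 20 others at most 3.39. The embryonic stem cell markers Pou5f1, Sox2, Nanog, Zfp42 and Esrrb summed to between 2410 and 3870 CPM in every library. Markers of trophectoderm summed to at most 10.1, of mesoderm to 3.25, of the neural lineage to 21.4 and of fibroblasts to 34.4. Those of primitive endoderm reached 345 CPM, in WT of batch B.

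Promoters of 3 genes at the output of the pathway are shown, that of Socs3 because it carries the palindrome that STAT dimers bind, and those of Pim1 (its first window) and Junb because their transcripts moved against that of Socs3 in BptfΔ. RefSeq (GRCm38.p6) gives 10 promoter windows for the 8 genes, each from 250 bases before to 50 bases after a transcription start. The letters TTCNNNGAA, where N is any base, read the same on both strands and occurred in 1 of the 10 windows, that of Socs3, and in 8.30% of 32851 mouse promoter windows of the same length. The windows of Socs3 (chr11:117969317-117969616, minus strand), Pim1 (chr17:29490535-29490834, plus strand) and Junb (chr8:84978699-84978998, minus strand) are given 5′ to 3′, with a match in capitals.
Socs3: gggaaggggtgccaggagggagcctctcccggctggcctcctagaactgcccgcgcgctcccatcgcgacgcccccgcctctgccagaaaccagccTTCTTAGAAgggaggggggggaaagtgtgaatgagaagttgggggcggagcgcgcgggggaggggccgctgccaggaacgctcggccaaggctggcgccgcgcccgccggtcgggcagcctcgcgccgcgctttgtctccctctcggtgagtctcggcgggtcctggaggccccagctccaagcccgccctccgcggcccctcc
Pim1: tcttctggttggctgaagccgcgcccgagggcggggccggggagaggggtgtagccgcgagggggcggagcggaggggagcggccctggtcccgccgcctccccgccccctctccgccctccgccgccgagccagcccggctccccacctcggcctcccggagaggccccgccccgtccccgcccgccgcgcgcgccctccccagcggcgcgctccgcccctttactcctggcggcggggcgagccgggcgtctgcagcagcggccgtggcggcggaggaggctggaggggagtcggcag
Junb: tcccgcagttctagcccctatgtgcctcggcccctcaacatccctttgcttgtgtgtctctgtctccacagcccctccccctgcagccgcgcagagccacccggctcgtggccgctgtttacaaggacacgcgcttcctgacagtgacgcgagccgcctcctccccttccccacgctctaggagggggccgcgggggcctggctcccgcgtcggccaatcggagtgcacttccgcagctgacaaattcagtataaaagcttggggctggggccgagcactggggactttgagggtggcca
The Socs3 match, TTCTTAGAA, begins 154 bases before the start site. The GC box GGGCGG, searched on both strands, occurred in 7 of the 10 windows and in 35.7% of all promoters, with 7 copies in the Pim1 window shown, 2 in that of Socs3 and 0 in that of Junb. The cAMP response element TGACGTCA occurred in the Jak1 window only, and in 1.79% of all promoters. A match is a description of the sequence and no test of binding. Only the letters given were searched, so a window without a match may still hold a STAT site of another form.

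In the 11 WT libraries, levels per kilobase of transcript placed Socs3 first and the receptors last. Mean levels were 55.06 normalized CPM per kilobase for Socs3, 46.91 for Gbx2, 40.03 for Pim1, 17.63 for Junb, 16.91 for Stat3, 11.42 for Jak1, 10.75 for Lifr and 9.79 for Il6st. The SDs over the 11 libraries were 8.48, 21.9, 6.46, 4.04, 1.38, 1.59, 3.84 and 0.634 in the same order. Among neighbours in this order, Pim1 exceeded Junb and Stat3 exceeded Jak1 in 11 of 11 libraries. The other 5 neighbouring pairs did not keep their order in every library, since Socs3 exceeded Gbx2 in 8 of 11, Jak1 exceeded Lifr in 9, and the remaining 3 pairs were ordered as their means in 5 of 11.

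WT cells differed between batches in most of these transcripts. A joint test of the batch terms called 7 of the 8 genes at an adjusted p under 0.01, beside 73.1% of all genes tested, and Il6st was the exception (adjusted p = 0.115). Gbx2 had the highest coefficient of variation over the WT libraries (46.8%), and ran from 56.32 CPM in batch C to 174.4 CPM in batch D. It was at 77.51 and 69.33 CPM in batch A, 62.43 and 60.83 in B, 62.26 and 56.32 in C, 172.5, 158.3 and 174.4 in D, and 102.7 and 105 in E. No Gbx2 value of batches D or E overlapped those of A, B or C. Lifr was highest in batch C, at 186.3 and 207.1 CPM, and lay between 86.71 and 117.1 CPM in the other 9 WT libraries. Against WT of batch B, WT of batch C had a Lifr log2 difference of 0.90 ± 0.079 (SE, adjusted p = 4.11e-10, with 40.1% of all genes called between this pair), larger than the changes of Lifr in the deletion lines. Whether the different RNA content of batch C has a part in this was not tested. Each line was therefore compared with the WT libraries of its own batch, other than in the fits named as having no batch term.

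**Figure D1:**
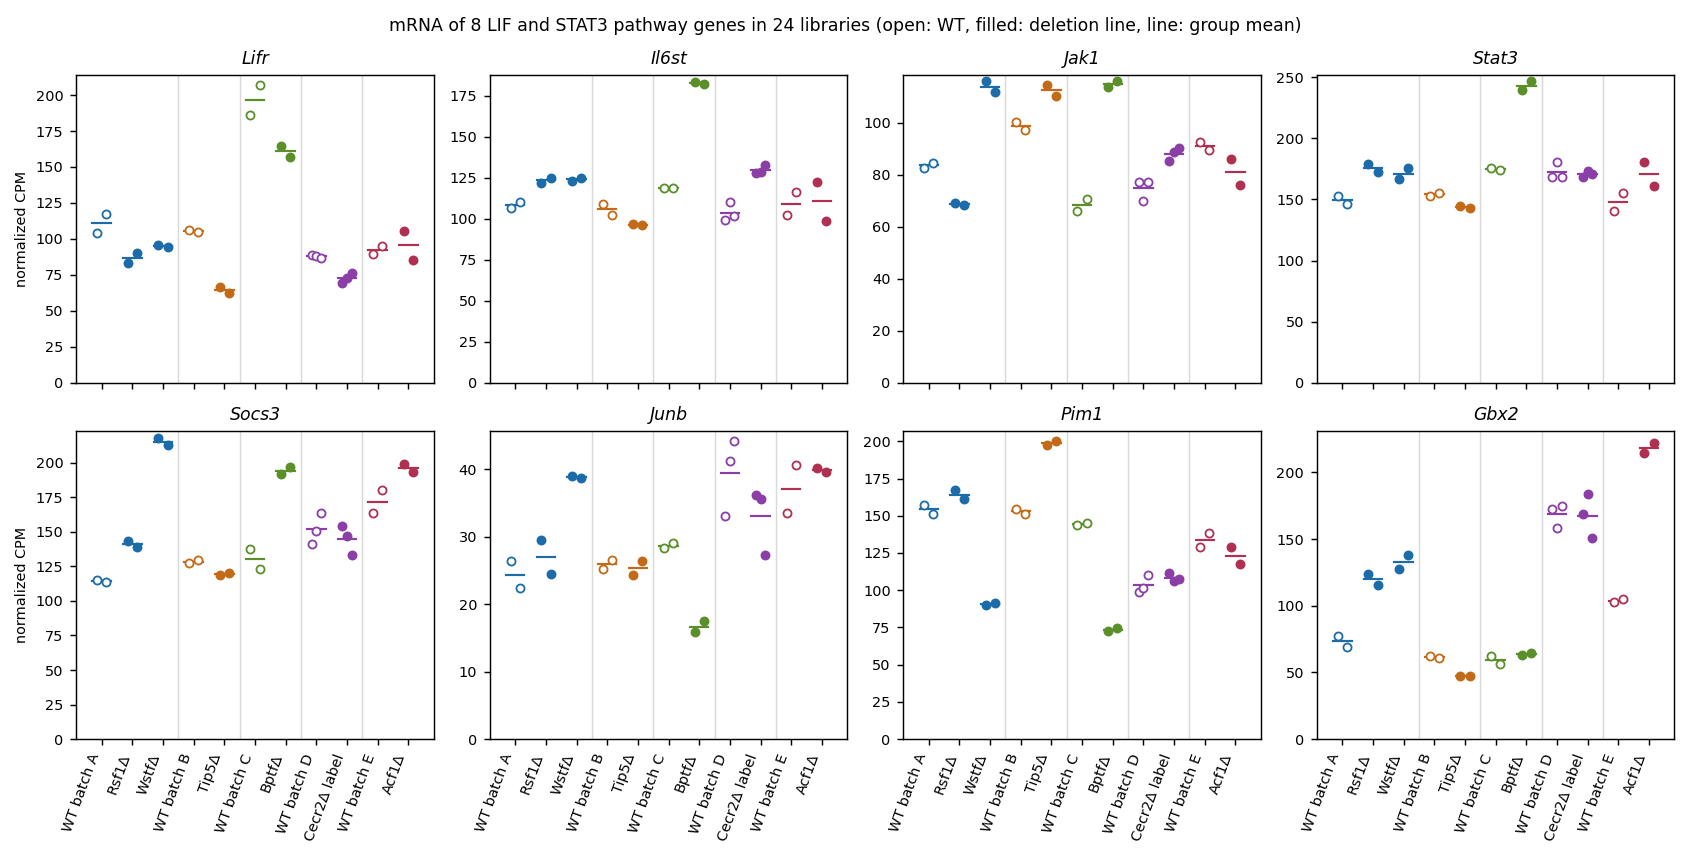
Normalized CPM (vertical axes) of the 8 genes in each of the 24 libraries, 1 panel per gene, with groups ordered by batch (open points WT, filled points deletion lines, bars the group mean). Within batch E, Gbx2 was at 214.3 and 222.1 CPM in Acf1Δ and at 102.7 and 105 in WT.

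Over the 6 lines the pathway did not move as a unit. Of 48 comparisons of a gene with its WT, 25 passed an adjusted p under 0.01 in edgeR's quasi-likelihood test, 16 higher and 9 lower. Log2 fold changes ran from -0.97 to 1.07 and 47 of the 48 were within 2-fold, the exception being Gbx2 in Acf1Δ. A joint test over the 6 lines called all 8 genes, beside 70.7% of genes tested. The number called was 5 of 8 in Rsf1Δ (20.6% of all genes tested were called), 5 in WstfΔ (34.7%), 3 in Tip5Δ (9.07%), 7 in BptfΔ (41.6%), 3 under the Cecr2Δ label (18.4%) and 2 in Acf1Δ (31.8%). Leaving out any 1 of the 4 libraries lowered the count in Rsf1Δ to 3 (without WT batch A replicate 1 or Rsf1Δ replicate 2) or 1 (without WT batch A replicate 2 or Rsf1Δ replicate 1), and the count in Acf1Δ was 1 without WT batch E replicate 1. The median log2 fold change of the 8 genes was 0.17, 0.32, -0.10, 0.29, -0.01 and 0.08 in the same order, and that of all genes lay between -0.026 and 0.015. Libraries of the line and its WT did not overlap for 7, 8, 7, 8, 3 and 4 of the 8 genes, where this held for 67.1%, 76.9%, 63.3%, 79.9%, 38.3% and 63.2% of all genes. These are bulk libraries, in which fewer cells with a transcript and less of it per cell cannot be told apart.

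**Figure D2:**
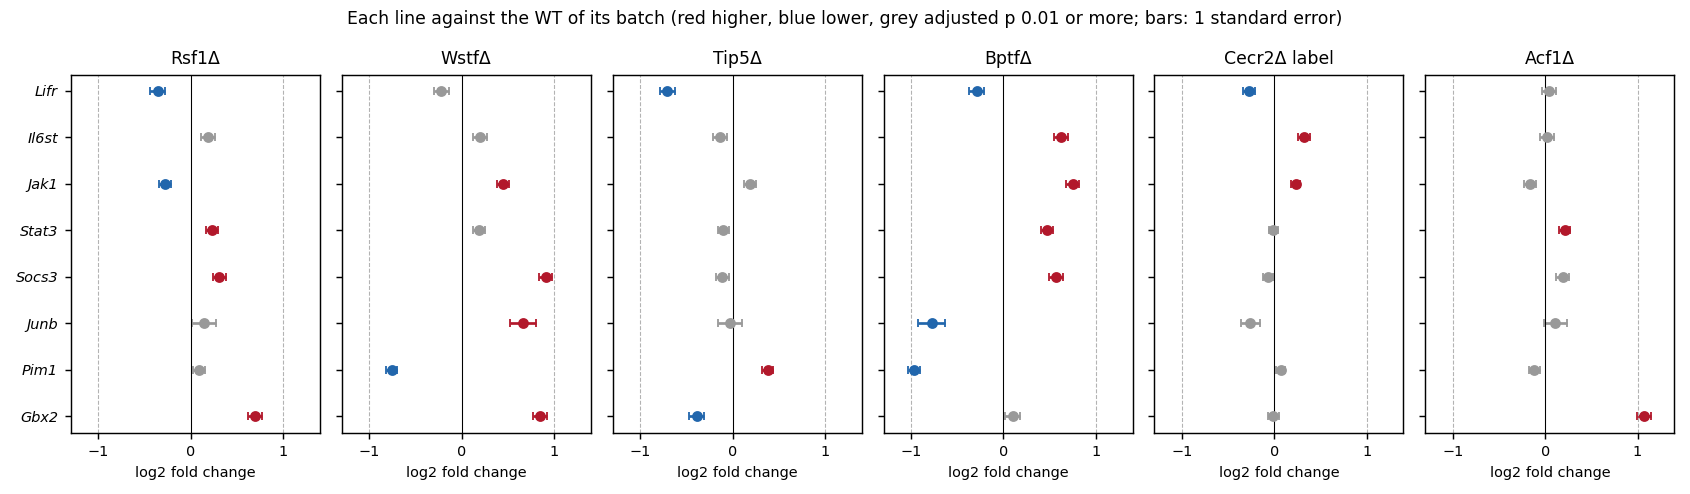
Log2 fold change of each gene (with SE) in each deletion line (panels) against the WT libraries of its batch, red where higher, blue where lower and grey where the adjusted p was not under 0.01. Socs3, Jak1, Il6st and Stat3 were above 0 in BptfΔ while Pim1 and Junb were below it, and Gbx2 in Acf1Δ, at 1.07, was the change beyond 2-fold.

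Lifr (gene ID 16880, chr15:7090610-7197489) encodes the subunit that gives the receptor its specificity for LIF. It was lower in 4 of 6 lines and higher in none. The largest decrease was in Tip5Δ, at 66.24 and 62.6 CPM against 106 and 104.8 in WT of batch B, and both Tip5Δ libraries lay well below the WT pair. The log2 fold change was -0.71 ± 0.081 (SE, adjusted p = 2.43e-07). Rsf1Δ libraries had 83.23 and 89.89 CPM against 104.4 and 117.1 in WT of batch A, a change of -0.36 ± 0.080 (adjusted p = 0.00111). BptfΔ libraries had 164.8 and 156.9 CPM against 186.3 and 207.1 in WT of batch C, a change of -0.29 ± 0.079 (adjusted p = 0.00296). Libraries labelled Cecr2Δ had 69.33, 72.66 and 76.11 CPM against 88.48, 88.19 and 86.71 in WT of batch D (-0.27 ± 0.065, adjusted p = 0.00223). In none of these 4 lines did a library overlap its WT. WstfΔ, at 96.01 and 94.46 CPM, lay below the same WT of batch A without passing the test (-0.22 ± 0.082, adjusted p = 0.0311), and Acf1Δ, at 105.8 and 85.07 CPM against 89.71 and 95.23, spanned its WT. The response of Tip5Δ was below that of Acf1Δ by -0.75 ± 0.11 (adjusted p = 1.04e-05). In a fit without a batch term, which sets BptfΔ against the WT libraries of all batches, its Lifr change turned to 0.47 (adjusted p = 0.118). The BptfΔ call was lost without WT batch C replicate 2 (adjusted p = 0.0742) or BptfΔ replicate 2 (0.0413), that of the Cecr2Δ label without its replicate 1 (0.0194), and that of Rsf1Δ without WT batch A replicate 2 (0.0442) or Rsf1Δ replicate 1 (0.0306).

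Markers of primitive endoderm, an extraembryonic lineage that arises in such cultures, also differed from WT, in the lines with lower Lifr and in others. The 6 markers Gata6, Gata4, Sox17, Sox7, Dab2 and Pdgfra were all lower in Rsf1Δ, WstfΔ, Tip5Δ, BptfΔ and the libraries labelled Cecr2Δ. In Acf1Δ, 3 were higher and 1 was lower. Their summed level was 140 CPM in Rsf1Δ and 134 in WstfΔ against 325 in WT of batch A. It was 75.3 in Tip5Δ against 336, 13.7 in BptfΔ against 144, 31.0 under the Cecr2Δ label against 103, and 279 in Acf1Δ against 238. No marker was at 0 in any group, and the part of these cells in the changes of Lifr or of the other 7 genes was not tested.

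The embryonic stem cell markers moved as well. Of Pou5f1, Sox2, Nanog, Zfp42 and Esrrb, 5 were higher in Rsf1Δ and in WstfΔ, 4 in BptfΔ, 3 under the Cecr2Δ label, and 2 were higher and 2 lower in Acf1Δ. Their sum was between 3240 and 3250 CPM in Rsf1Δ and 3450 and 3490 in WstfΔ against 2410 to 2490 in WT of batch A, and between 3640 and 3650 in BptfΔ against 2490 to 2560 in WT of batch C. It was 3670 to 3870 under the Cecr2Δ label against 3230 to 3510, 3510 to 3630 in Acf1Δ against 2940 to 3130, and 2880 to 2970 in Tip5Δ against 2920 to 2930, where none of the 5 was called. Of 5 fibroblast markers, 3 were lower in each of Rsf1Δ, WstfΔ, Tip5Δ, BptfΔ and Acf1Δ, 1 was lower under the Cecr2Δ label and 1 was higher in WstfΔ. Of 4 trophectoderm markers tested, 2 were lower in Rsf1Δ, WstfΔ and the Cecr2Δ label, 1 in BptfΔ and Acf1Δ, and 1 was higher in WstfΔ. Of 4 mesoderm markers, 1 was lower in BptfΔ and 2 in Acf1Δ. Of 2 neural markers tested, 1 was higher in Rsf1Δ, WstfΔ, Tip5Δ and BptfΔ, and 1 was lower in WstfΔ, BptfΔ and Acf1Δ, and the sum of the 3 listed was 18.3 to 19.6 CPM in BptfΔ against 8.81 to 9.4 in WT. All marker counts stand beside the shares of all genes called, which were 20.6% in Rsf1Δ, 34.7% in WstfΔ, 9.07% in Tip5Δ, 41.6% in BptfΔ, 18.4% under the Cecr2Δ label and 31.8% in Acf1Δ. The part of these cells in the changes of the 8 genes was likewise not tested.

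Il6st (gene ID 16195, chr13:112464070-112506860) encodes gp130, the signalling subunit shared by receptors of the interleukin-6 family. It was the steadiest of the 8 transcripts in WT, between 99.44 and 118.9 CPM in 11 libraries. The largest increase was in BptfΔ, at 183.6 and 182.3 CPM against 118.9 and 118.8 in WT of batch C, a log2 fold change of 0.62 ± 0.076 (adjusted p = 1.22e-07). Libraries labelled Cecr2Δ had 127.7, 128.7 and 133 CPM against 99.44, 110.1 and 101.8 (0.32 ± 0.061, adjusted p = 0.000191), again with no overlap. Rsf1Δ and WstfΔ libraries, between 122.1 and 125 CPM, lay above WT of batch A at 106.4 and 109.9, with changes of 0.19 and 0.20 that did not pass (adjusted p = 0.0562 and 0.0378). Tip5Δ was at 96.58 and 95.88 CPM against 109.1 and 102.3 (-0.14, adjusted p = 0.255). The Acf1Δ libraries lay apart, at 122.4 and 98.84 CPM, and spanned their WT at 102 and 116.5 (0.02, adjusted p = 0.875), as they did for Lifr. With its own batch alone in the fit, Il6st passed in Rsf1Δ (adjusted p = 0.00992), WstfΔ (0.00107) and Tip5Δ (0.00888). BptfΔ exceeded the response of Rsf1Δ, WstfΔ, Tip5Δ and Acf1Δ in Il6st, the widest gap being from Tip5Δ (-0.76 ± 0.11, Tip5Δ minus BptfΔ, adjusted p = 2.38e-06). The BptfΔ response minus that of the Cecr2Δ label was 0.3 ± 0.098 (adjusted p = 0.014). In BptfΔ and under the Cecr2Δ label, Lifr and Il6st thus moved in opposite directions.

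Jak1 (gene ID 16451, chr4:101151974-101265282) encodes the main receptor-bound kinase of this route. Its gene span overlaps that of Raver2, so its counts may hold reads of that gene. BptfΔ had 113.7 and 116 CPM against 65.93 and 70.73 in WT of batch C, and the log2 fold change was 0.75 ± 0.067 (adjusted p = 4.49e-10). WstfΔ had 116 and 111.7 CPM against 82.42 and 84.62 in WT of batch A (0.45 ± 0.066, adjusted p = 3.73e-06). Against the same WT, Rsf1Δ was lower at 68.93 and 68.31 CPM (-0.28 ± 0.066, adjusted p = 0.0016). The lines of batch A therefore lay on opposite sides of their shared WT, and their difference of -0.73 ± 0.067 (Rsf1Δ minus WstfΔ) passed with an adjusted p of 1.53e-09. Libraries labelled Cecr2Δ, at 85.15, 88.62 and 90.25 CPM, were above WT of batch D at 77.35, 69.84 and 77.19 (0.23 ± 0.053, adjusted p = 0.00125). Tip5Δ (0.19, adjusted p = 0.0481) and Acf1Δ (-0.17, adjusted p = 0.039) did not pass. The Rsf1Δ call was lost without any of 3 single libraries, WT batch A replicate 2 (adjusted p = 0.0218) and Rsf1Δ replicates 1 (0.0143) and 2 (0.0201), and without batch C in the fit (0.0109). That of the Cecr2Δ label was lost without WT batch D replicate 2 (0.0111) and with its own batch alone in the fit (0.0109), a fit in which Tip5Δ passed (0.000706).

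Stat3 (gene ID 20848, chr11:100886806-100939594) encodes the transcription factor at the end of the cascade. The largest increase was again in BptfΔ, at 239.4 and 247 CPM against 176 and 174.5 in WT of batch C, a log2 fold change of 0.47 ± 0.062 (adjusted p = 3.82e-07). Smaller increases passed in Rsf1Δ (179.4 and 172.6 CPM against 153.1 and 146.5, 0.23 ± 0.062, adjusted p = 0.00486) and in Acf1Δ (180.3 and 161.1 against 140.3 and 155.5, 0.21 ± 0.062, adjusted p = 0.00801). The Rsf1Δ call was lost without any 1 of the 4 libraries of that comparison, with adjusted p between 0.0145 and 0.0681, and the Acf1Δ call without WT batch E replicate 1 (0.156) or Acf1Δ replicate 1 (0.14). Both calls were also lost with the replicate number as a block (0.0198 in Rsf1Δ and 0.0264 in Acf1Δ), and the Acf1Δ call with library size in place of TMM scaling (0.0124) and with its own batch alone in the fit (0.141). WstfΔ, at 166.6 and 175.9 CPM, lay above its WT without passing (0.19, adjusted p = 0.0135), and passed with its own batch alone in the fit (0.00127), without batch C (0.00617) and with DESeq2 (0.00991). Tip5Δ was at 144.7 and 143.3 CPM against 153 and 155.7 (-0.10, adjusted p = 0.309). The libraries labelled Cecr2Δ had 168.7, 173.1 and 170.6 CPM and overlapped their WT at 168.3, 181 and 168 (-0.01, adjusted p = 0.87). The transcript says nothing of STAT3 phosphorylation, which was not measured here.

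Socs3 (gene ID 12702, chr11:117966079-117970336) encodes the inhibitor that STAT3 induces and that switches the receptor off. It rose most in WstfΔ, to 217.6 and 212.8 CPM from 114.9 and 113.7 in WT of batch A. The log2 fold change was 0.91 ± 0.072 (adjusted p = 6.34e-11), or 1.88-fold. BptfΔ libraries had 191.5 and 196.5 CPM against 137.9 and 123.1 (0.57 ± 0.072, adjusted p = 2.11e-07). Rsf1Δ libraries had 143.6 and 138.9 CPM against the WT of batch A (0.31 ± 0.072, adjusted p = 0.00168), a call lost without WT batch A replicate 1 (0.0137), replicate 2 (0.0197) or Rsf1Δ replicate 1 (0.0223). All 3 increases were without overlap. Acf1Δ, at 198.7 and 193.4 CPM against 163.5 and 179.9, did not pass (0.19, adjusted p = 0.0293), nor did Tip5Δ at 118.6 and 119.9 against 127.6 and 129.3 (-0.11, adjusted p = 0.354). The libraries labelled Cecr2Δ had 154.4, 147.1 and 133.4 CPM and overlapped their WT at 141.5, 150.3 and 163.6 (-0.07, adjusted p = 0.414). The WstfΔ response exceeded that of Tip5Δ by 1.02 ± 0.10 (adjusted p = 1.22e-08) and that of Rsf1Δ, measured against the same WT, with a difference of -0.61 ± 0.072 (Rsf1Δ minus WstfΔ, adjusted p = 1.18e-07).

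Pim1 (gene ID 18712, chr17:29490785-29496111) encodes a serine/threonine kinase that promotes survival. It fell where Socs3 rose most. BptfΔ had 72.38 and 74.71 CPM against 143.6 and 145 in WT of batch C, a log2 fold change of -0.97 ± 0.064 (adjusted p = 9.45e-13). WstfΔ had 89.94 and 91.75 CPM against 157.5 and 150.9 in WT of batch A (-0.76 ± 0.063, adjusted p = 1.57e-10). Both pairs lay far below the WT of their batch. Tip5Δ was the line with an increase, at 197.8 and 200.4 CPM against 154.4 and 151.5 (0.38 ± 0.060, adjusted p = 3.84e-05). The gap between Tip5Δ and BptfΔ was 1.35 ± 0.088 (adjusted p = 2.21e-12). Rsf1Δ (167.1 and 161.3 CPM, 0.09), the Cecr2Δ label (between 106.5 and 111.6 CPM, 0.07) and Acf1Δ (128.7 and 117.6 CPM, -0.12) did not pass, with adjusted p between 0.122 and 0.322.

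Junb (gene ID 16477, chr8:84976909-84978748), the lowest of the 8 in counts, moved in opposite directions in WstfΔ and BptfΔ. WstfΔ had 39.01 and 38.78 CPM against 26.41 and 22.39 in WT of batch A, a log2 fold change of 0.67 ± 0.14 (adjusted p = 0.000197). BptfΔ had 15.86 and 17.45 CPM against 28.29 and 29.12 in WT of batch C (-0.78 ± 0.15, adjusted p = 6.44e-05). Neither pair overlapped its WT, and the WstfΔ response exceeded that of BptfΔ by 1.45 ± 0.20 (adjusted p = 2.34e-06). In batch D the spread was wider, with 36.26, 35.58 and 27.37 CPM under the Cecr2Δ label and 33.14, 41.21 and 44.25 in WT (-0.26 ± 0.099, adjusted p = 0.0525), and this passed without WT batch D replicate 1 (0.00539). Rsf1Δ (0.14), Tip5Δ (-0.03) and Acf1Δ (0.11) overlapped their WT.

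Gbx2 (gene ID 14472, chr1:89927962-89931176) encodes a homeobox factor that can sustain self-renewal of mESCs. In Acf1Δ it was at 214.3 and 222.1 CPM against 102.7 and 105 in WT of batch E, a log2 fold change of 1.07 ± 0.076 (adjusted p = 3.54e-11), or 2.10-fold. This was the change beyond 2-fold, which 4.45% of all genes passed in that line. WstfΔ at 127.5 and 138.1 CPM (0.85 ± 0.080, adjusted p = 1.45e-09) and Rsf1Δ at 124.1 and 115.4 CPM (0.70 ± 0.078, adjusted p = 6.15e-08) both exceeded WT of batch A at 77.51 and 69.33. Tip5Δ was lower, at 47.19 and 47.01 CPM against 62.43 and 60.83 (-0.39 ± 0.082, adjusted p = 0.00123). The Tip5Δ call was lost without WT batch B replicate 1 (0.0178), Tip5Δ replicate 1 (0.017) or Tip5Δ replicate 2 (0.0188). BptfΔ had 63.22 and 64.37 CPM against 62.26 and 56.32 (0.10, adjusted p = 0.305), and the Cecr2Δ label overlapped its WT. Tip5Δ and Acf1Δ differed in this response by -1.46 ± 0.11 (adjusted p = 1.44e-10).

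Between lines, 59 of 120 contrasts of the 8 genes (15 pairs of lines) passed, where the share of all genes ranged from 8.37% to 38.6% by pair. Jak1, Pim1 and Gbx2 differed in 10 of 15 pairs each, Socs3 in 9, Junb in 7, Il6st in 5, and Lifr and Stat3 in 4. Rsf1Δ differed from WstfΔ in 4 of the 8 genes (33.3% of all genes), from Tip5Δ in 4 (11.7%), from BptfΔ in 5 (30.7%) and from the Cecr2Δ label in 3 (16.1%). Between Rsf1Δ and Acf1Δ, edgeR called 0 of 8 (14.8%), with 3 at an unadjusted p under 0.05. WstfΔ differed from Tip5Δ in 5 (23.6%), from BptfΔ in 3 (21.2%), from the Cecr2Δ label in 4 (23.4%) and from Acf1Δ in 3 (34.9%). Tip5Δ differed from BptfΔ in all 8 genes (30.4%), from the Cecr2Δ label in 3 (8.37%) and from Acf1Δ in 5 (24.4%). BptfΔ differed from the Cecr2Δ label in 4 (34.2%) and from Acf1Δ in 6 (38.6%), and those last 2 differed in 2 (31.9%). Rsf1Δ and WstfΔ share their WT libraries, so that this contrast is between the lines themselves, and Jak1, Socs3, Junb and Pim1 differed in it. Between WstfΔ and BptfΔ, from different batches, the responses differed in size in Il6st (0.20 and 0.62) and Gbx2 (0.85 and 0.10), and in direction in Junb (0.67 and -0.78).

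Across the 24 libraries, log2 levels were set relative to the WT mean of each batch and compared between genes. Libraries of 1 line share their clone and their batch, so these correlations describe the 6 lines more than 24 independent samples. Of 28 pairs among the 8 genes, 14 had a positive Pearson r and the median was 0.042. The highest was Stat3 with Socs3 (0.747), followed by Il6st with Stat3 (0.740), and the lowest was Socs3 with Pim1 (-0.833). Pim1 was also negatively related to Stat3 (-0.767), Jak1 (-0.712) and Il6st (-0.655). Both Socs3 and Pim1 are STAT3 targets in the list, and they had the most opposed profiles of the 8.

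**Figure D3:**
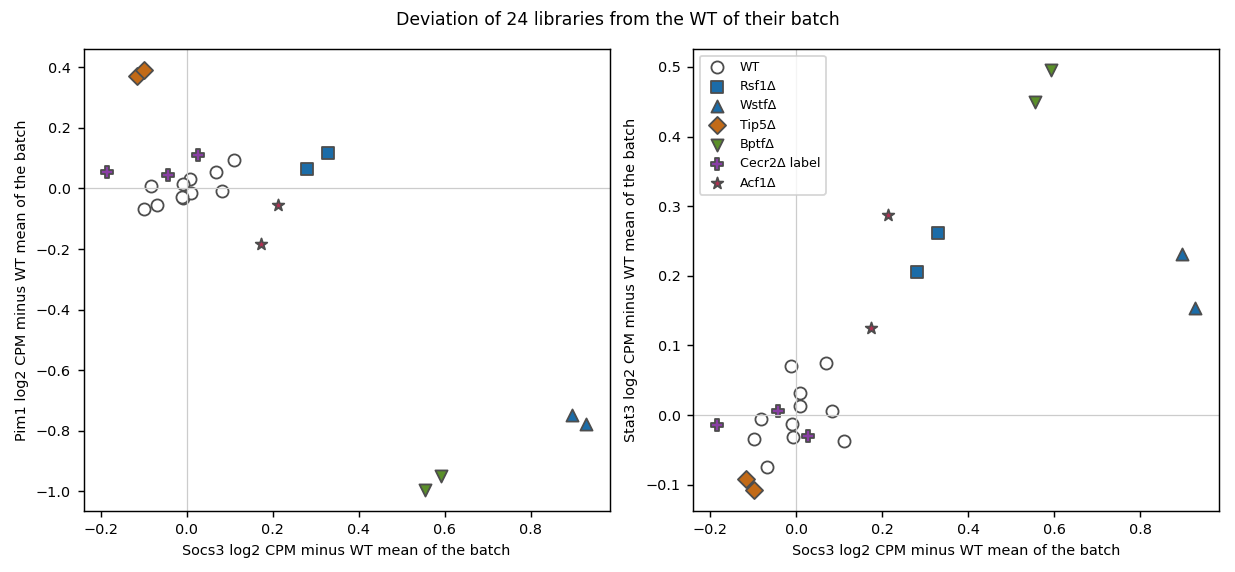
Log2 level of Socs3 relative to the WT mean of its batch (horizontal axis) against that of Pim1 (left) and Stat3 (right) in 24 libraries, with a symbol shape for each genotype and colour for the batch of a deletion line. The WstfΔ and BptfΔ libraries lie at the right with Pim1 low, and the Pearson r is -0.833 for Pim1 and 0.747 for Stat3.

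The most similar genes among all those tested with a mean log2 CPM of at least 3 lay outside the pathway. For Socs3 they were Irf2bpl (r = 0.978), Nectin1 (0.976) and Igsf21 (0.966), and for Pim1 they were Stk4 (0.960), Tbc1d9 (0.955) and G6pdx (0.950). For Jak1 they were Top2b and Spsb1 (0.965 each), then D5Ertd579e (0.957). Gbx2 was closest to Mkrn1 (0.958), Ndufs7 (0.953) and Pofut1 (0.936). Stat3 was closest to C2cd2l (0.949), Taf6l (0.946) and Naa40 (0.932), and Il6st to Pdpk1 (0.938), Fto (0.936) and Lrch3 (0.928). Lifr had Bcr (0.946), Ankrd33b (0.926) and Slc13a5 (0.912), and Junb had Utf1 (0.918), A430057M04Rik (0.883) and Cdc34 (0.881). Each was picked as a maximum over all these genes, so its size is not comparable with the r of a pair within the list.

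The rest of the pathway was counted in a list of 54 further genes, of which 53 were tested. Called were 19 in Rsf1Δ (9 higher, 10 lower), 28 in WstfΔ (22 and 6), 7 in Tip5Δ (4 and 3), 30 in BptfΔ (25 and 5), 13 under the Cecr2Δ label (6 and 7) and 12 in Acf1Δ (4 and 8). As shares these were 35.8%, 52.8%, 13.2%, 56.6%, 24.5% and 22.6%, to be read beside 20.6%, 34.7%, 9.07%, 41.6%, 18.4% and 31.8% of all genes. Of all genes tested, 7.45% were called higher and 13.1% lower in Rsf1Δ, 16.4% and 18.3% in WstfΔ, 2.84% and 6.23% in Tip5Δ, 21.4% and 20.2% in BptfΔ, 9.52% and 8.83% under the Cecr2Δ label, and 15.1% and 16.7% in Acf1Δ. The median log2 fold change of the list was 0.41 in BptfΔ and 0.23 in WstfΔ, and between -0.07 and -0.03 in the other 4 lines. In Tip5Δ the count was 2 or 3 when any 1 of the 4 libraries was left out, and in Rsf1Δ it was 12 without WT batch A replicate 2 and 11 without Rsf1Δ replicate 1.

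**Figure D4:**
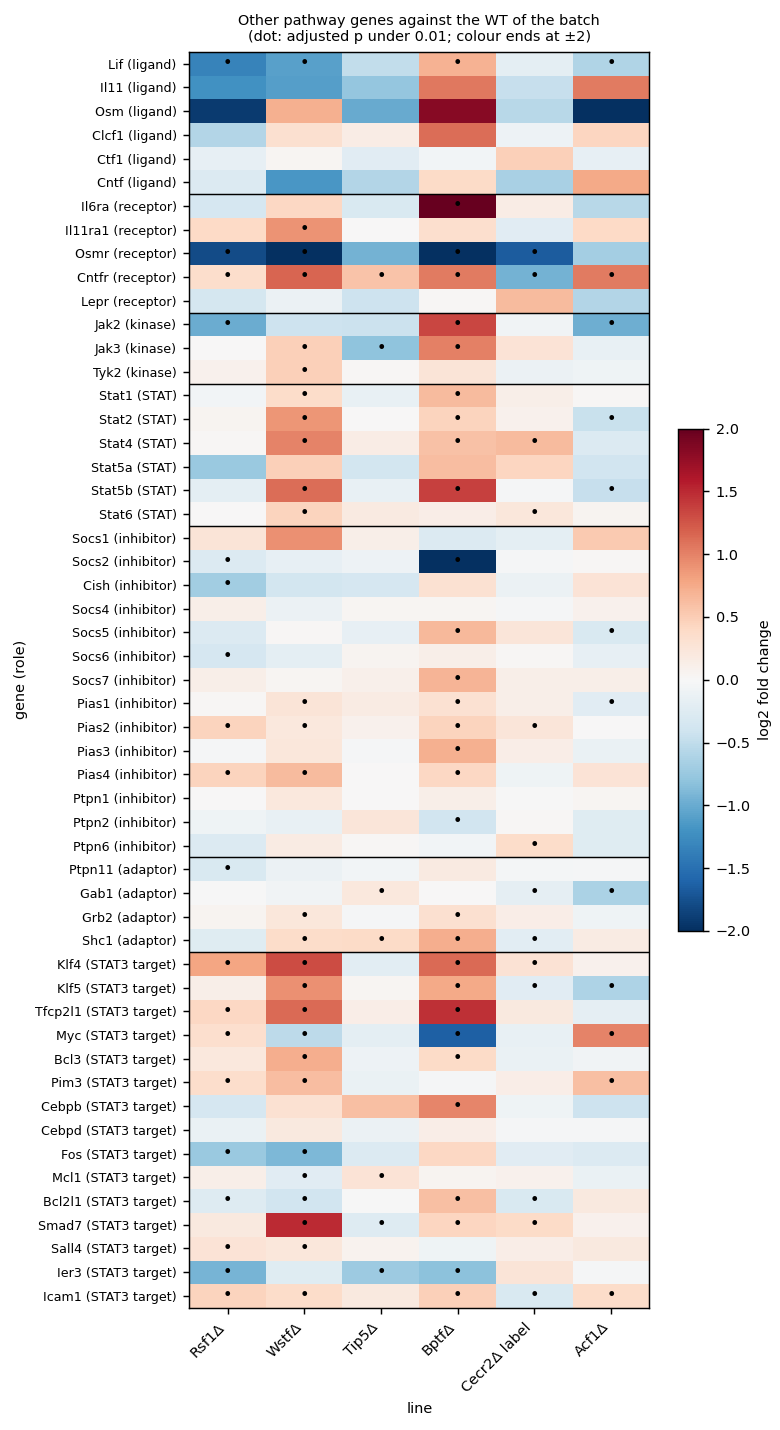
Colour map of the log2 fold change of the 53 further pathway genes (rows, grouped by role) in each deletion line (columns), red for higher and blue for lower than WT of the batch, with a dot at an adjusted p under 0.01. The BptfΔ column holds 25 red and 5 blue dotted cells, and the WstfΔ column 22 and 6.

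Among ligands, Lif itself was lower in 3 lines. It was at 3.844 ± 0.0913 CPM (SD, n = 2) in Rsf1Δ and 4.579 ± 0.37 in WstfΔ against 9.705 ± 0.266 in WT of batch A, with log2 fold changes of -1.34 ± 0.16 (SE, adjusted p = 2.72e-07) and -1.08 ± 0.17 (adjusted p = 1.2e-05). Acf1Δ was at -0.60 ± 0.15 (adjusted p = 0.00175), whereas BptfΔ was higher by 0.70 ± 0.18 (adjusted p = 0.00203). Of the 5 further receptor genes, Osmr, the oncostatin M receptor, was lower in Rsf1Δ (-1.79), WstfΔ (-2.03), BptfΔ (-2.53) and the Cecr2Δ label (-1.66), at a WT level of 2.687 CPM or less. Cntfr, the ciliary neurotrophic factor receptor, was higher in WstfΔ (1.17), BptfΔ (1.04), Acf1Δ (1.04), Tip5Δ (0.57) and Rsf1Δ (0.35) and lower under the Cecr2Δ label (-0.94 ± 0.067, adjusted p = 2.11e-11). Il6ra, the interleukin-6 receptor, rose to 5.575 from 0.7993 CPM in BptfΔ (2.79 ± 0.33, adjusted p = 8.6e-08).

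The kinase Jak2 was lower in Rsf1Δ (-1.0 ± 0.15, adjusted p = 7.27e-06) and Acf1Δ (-0.98 ± 0.14, adjusted p = 5.13e-06) and higher in BptfΔ (1.33 ± 0.15, adjusted p = 3.11e-08). Jak3 was lower in Tip5Δ (-0.80 ± 0.12, adjusted p = 2.38e-05) and higher in WstfΔ (0.47) and BptfΔ (1.01). Of the 6 further STAT genes, 5 were higher in WstfΔ (16.4% of all genes were), 4 in BptfΔ (21.4%) and 2 under the Cecr2Δ label (9.52%), and 2 were lower in Acf1Δ (16.7%), with no other STAT gene called in any line. Stat4 was higher under the Cecr2Δ label, at 30.28 against 19.52 CPM (0.63 ± 0.076, adjusted p = 2.9e-07), as it was in WstfΔ and BptfΔ. Of the 14 inhibitors, which include the other SOCS genes, the PIAS genes and phosphatases, 2 were higher and 3 lower in Rsf1Δ, 3 and 0 in WstfΔ, 6 and 2 in BptfΔ, 2 and 0 under the Cecr2Δ label, and 0 and 2 in Acf1Δ, and none was called in Tip5Δ. The shares of all genes called higher and lower were 7.45% and 13.1% in Rsf1Δ, 16.4% and 18.3% in WstfΔ, 21.4% and 20.2% in BptfΔ, 9.52% and 8.83% under the Cecr2Δ label, and 15.1% and 16.7% in Acf1Δ. Socs2, an inhibitor of growth hormone signalling, was lower in BptfΔ, at 16.95 against 67.91 CPM (-2.0 ± 0.084, adjusted p = 7.77e-17), opposite in direction to Socs3 in the same libraries.

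Among 15 further STAT3 targets, 6 were higher and 3 lower in Rsf1Δ (7.45% and 13.1% of all genes), 8 and 4 in WstfΔ (16.4% and 18.3%), 1 and 2 in Tip5Δ (2.84% and 6.23%), 8 and 2 in BptfΔ (21.4% and 20.2%), 2 and 3 under the Cecr2Δ label (9.52% and 8.83%), and 3 and 1 in Acf1Δ (15.1% and 16.7%). Tfcp2l1, a self-renewal factor, was at 2035 CPM in BptfΔ against 740.1 in WT of batch C (1.46 ± 0.088, adjusted p = 1.49e-13) and was also higher in WstfΔ (1.13) and Rsf1Δ (0.41 ± 0.087, adjusted p = 0.000601). Klf4, a pluripotency factor, was higher in Rsf1Δ (0.79), WstfΔ (1.30), BptfΔ (1.14) and the Cecr2Δ label (0.29). Smad7, an inhibitor of TGF-beta signalling, was at 144.7 CPM in WstfΔ against 51.66 (1.49 ± 0.068, adjusted p = 7.71e-16). Myc, a growth regulator, was lower in BptfΔ, at 27.34 against 84.61 CPM (-1.63 ± 0.077, adjusted p = 9.3e-16), and in WstfΔ (-0.53 ± 0.069, adjusted p = 5.06e-07). It was higher in Acf1Δ, at 175.4 against 88.11 CPM (0.99 ± 0.067, adjusted p = 1.15e-11), and in Rsf1Δ (0.34 ± 0.066, adjusted p = 0.000232). Ier3, an early response gene, was lower in Tip5Δ (-0.73 ± 0.18, adjusted p = 0.00432), Rsf1Δ (-0.93) and BptfΔ (-0.82). Targets attributed to 1 factor thus took different directions within a line, as Pim1 and Myc did beside Tfcp2l1 and Socs3 in BptfΔ.

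Junb is also an immediate early gene, a class induced within minutes by serum and other stimuli. Of 12 other immediate early genes, including Jun, Egr1 and Fos (Fos is also among the STAT3 targets counted before), 3 were higher and 8 lower in WstfΔ, where Junb was higher, and 2 were higher and 5 lower in BptfΔ, where Junb was lower. In Rsf1Δ 1 was higher and 6 were lower, in Tip5Δ 1 was lower, under the Cecr2Δ label 3 were lower, and in Acf1Δ 2 were higher and 3 lower. The median log2 fold change of the 12 was -0.75 in Rsf1Δ, -0.96 in WstfΔ, -0.05 in Tip5Δ, 0.15 in BptfΔ, -0.11 under the Cecr2Δ label and -0.28 in Acf1Δ. The share of the 12 that was called was 58.3% in Rsf1Δ, 91.7% in WstfΔ, 8.33% in Tip5Δ, 58.3% in BptfΔ, 25% under the Cecr2Δ label and 41.7% in Acf1Δ, beside 20.6%, 34.7%, 9.07%, 41.6%, 18.4% and 31.8% of all genes. The 1 call in Tip5Δ was lost when any 1 of its 4 libraries was left out, and the 5 in Acf1Δ became 3 without WT batch E replicate 1.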

How the data were processed

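Reads had been mapped by the authors to mm10 (QuasR, spliced Rhisat2 alignment) and assigned to UCSC knownGene genes. What the authors deposited are raw counts without normalization, for 24594 genes in 1 table, which also holds each gene's width in bases, listed by the authors beside the counts and used here for levels per kilobase. Per the labels, the submitters' processing notes name bcl2fastq 2.17 and HISAT2. How overlapping genes and strands were counted is not given in the sources used here, and the labels and the study's methods name different TruSeq kits. Groups and batches came from the sample labels. Symbols and coordinates came from RefSeq GRCm38, which held 24570 of the IDs, and all 8 genes matched.

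Counts were analysed in R 4.3.3 with edgeR 4.0.16. Genes were filtered with filterByExpr by genotype (15682 kept), libraries were scaled with TMM factors, and a quasi-likelihood model in its legacy form, with terms for batch and genotype, was fitted over the 24 libraries. P-values were adjusted over all genes tested by the Benjamini-Hochberg method and called under 0.01. Contrasts between lines, between WT batches, and joint tests came from the same fit. Each SE was derived as the size of the log2 fold change over the square root of its F statistic. The common biological coefficient of variation was 0.0567. Depth was between 13417755 and 36721585 counts a library, and the floor of 3 counts covers counting error only, while each SE includes the spread between libraries.

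The 8 genes and all lists were chosen with earlier results of these data known. Further pathway genes were named by rule: Lif, Klf4, Tfcp2l1 and Myc, and per line at most the 3 with the largest change among those called, without overlap and with a mean of at least 10 counts. For likeness, the 3 genes with the highest r were named. The steps were tested on simulated data for 15347 genes. At a log2 fold change of 0.5, 53 of 100 changed genes were found in Rsf1Δ, 44 in WstfΔ, 53 in Tip5Δ, 39 in BptfΔ, 51 under the Cecr2Δ label and 56 in Acf1Δ. Among those with a mean of at least 500 counts, as all 8 genes have, the numbers were 47 of 52, 39 of 46, 44 of 47, 38 of 41, 41 of 41 and 44 of 47. Alternatives were library size only, DESeq2 size factors, edgeR's newer fit, DESeq2 1.42.0, no filter, no batch term, a replicate block, own batch only, another threshold and leaving out each library. A fit without batch C was added after seeing the data. No column of the table was left unused, and other assays of the study were not analysed here.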

Additional observations from a re-analysis of the deposited data

Results flagged for a closer look

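For each of the 8 genes, the pair of lines whose responses differed most was picked out, with the difference tested in the same fit over all genes. Since the pair was the widest of 15, the values are descriptions. The log2 fold change of Lifr was lower in Tip5Δ than in Acf1Δ by a difference of -0.75. For Il6st the difference of Tip5Δ minus BptfΔ was -0.76, and for Stat3 it was -0.57. Jak1 gave -1.03 for Rsf1Δ minus BptfΔ, which had changes of opposite sign. Socs3 gave 1.02 for WstfΔ minus Tip5Δ. Junb gave 1.45 for WstfΔ minus BptfΔ and Pim1 1.35 for Tip5Δ minus BptfΔ, in both cases between an increase and a decrease that each passed alone. Gbx2 gave -1.46 for Tip5Δ minus Acf1Δ, between a decrease and an increase that each passed. No test for outlying single libraries was run, since the one used here is made for larger groups than these.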

How the results depend on the processing

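Of the 48 gene and line comparisons, all 48 kept their direction and call with DESeq2 size factors and with edgeR's newer fit, 47 with DESeq2 and with library size only, 46 without the filter on low counts and with the replicate block, 41 with own batch only and 31 without a batch term. Library size only left 1 of the 8 genes called in Acf1Δ, Stat3 being lost (adjusted p = 0.0124). Without a batch term, which sets each line against all 11 WT libraries, the genes called fell to 0 in Rsf1Δ, Tip5Δ, the Cecr2Δ label and Acf1Δ and to 2 in WstfΔ, the further pathway genes to 0 in Rsf1Δ, 6 in WstfΔ, 1 in Tip5Δ, 15 in BptfΔ, 3 under the Cecr2Δ label and 2 in Acf1Δ, and the immediate early genes to 0 in Rsf1Δ, WstfΔ, Tip5Δ and Acf1Δ and 4 in BptfΔ. Lifr in BptfΔ reversed to 0.47 (adjusted p = 0.118), since its WT libraries were the highest of all. With own batch only, 5 genes were called in Tip5Δ and 1 in Acf1Δ, with 17 and 6 further pathway genes. That fit lost Jak1 under the Cecr2Δ label (adjusted p = 0.0109) and Stat3 in Acf1Δ, and gained Il6st in Rsf1Δ, WstfΔ and Tip5Δ, Stat3 in WstfΔ and Jak1 in Tip5Δ. At an adjusted p under 0.05, 8 genes were called in WstfΔ and 4 in Acf1Δ, and 14, 20 and 20 further pathway genes in Tip5Δ, the Cecr2Δ label and Acf1Δ. Replicate numbers are shared between groups, but same-numbered libraries did not deviate together (r between -0.0672 and 0.0453 over 15 pairs). Where groups hold 2 libraries, both replicate numbers give the same r by construction, so these pairs are not independent. With the replicate block, 1 of the 8 genes was called in Acf1Δ and 4 further pathway genes in Tip5Δ, Stat3 being lost in Rsf1Δ (adjusted p = 0.0198) and Acf1Δ (0.0264). Without batch C, Jak1 was lost in Rsf1Δ and Stat3 was gained in WstfΔ (0.00617).

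Leaving out each library, with a lone library assumed to vary like the other groups, gave 1 to 3 of the 8 genes in Rsf1Δ, 5 in WstfΔ, 2 to 3 in Tip5Δ, 6 to 7 in BptfΔ, 2 to 4 under the Cecr2Δ label and 1 to 2 in Acf1Δ. Further pathway genes numbered 11 to 14, 20 to 23, 2 to 3, 25 to 28, 11 to 15 and 9 to 13 in the same order, and immediate early genes 6 to 7, 8 to 10, 0, 5, 3 to 4 and 3 to 6. The joint tests called 7 and 8 genes in all 24 such fits. The causes of these losses were not tested, and each of these fits also held fewer libraries.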
